A study of Mus musculus with 15 samples.

Results

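The genes described are 7 of the 56980 genes in the expression table of dystrophic mouse muscle and heart: Hcn2, Hcn4, Tbx3, Tbx5, Shox2, Gja1 and Gja5. They were chosen by name, as genes of the cardiac pacemaker and conduction system, and their Ensembl identifiers were matched to GENCODE M39 symbols. All libraries came from DBA/2J-mdx mice, a strain without dystrophin that models Duchenne muscular dystrophy, and RNA was measured in bulk from whole tissue pieces. The treatment was the senolytic pair dasatinib and quercetin (D + Q), drugs given to remove senescent cells, or vehicle, 2 times per week. Tibialis anterior (TA), a hindlimb muscle, was taken at 5 months of age after 2 months of treatment, from 4 D + Q-treated males and from 4 vehicle-treated mice, 2 of each sex. Heart was taken at 16 months of age after 4 months of treatment, from 4 vehicle-treated mice, 2 of each sex, and from 3 D + Q-treated mice labelled as 1 male and 2 females. There was no mouse with intact dystrophin among the 15 libraries, so the disease itself was not compared. The sources used here do not state whether the heart pieces held atria.

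In the heart, pacemaker cells of the sinoatrial node depolarise on their own, and the impulse travels through atrial muscle, the atrioventricular node, and the His bundle and Purkinje fibres to the ventricles. HCN channels carry the inward current that opens on hyperpolarisation and helps to set the beat, T-box and homeobox transcription factors keep nodal cells apart from working muscle, and connexins form the gap junctions through which the impulse passes from cell to cell. Nodal cells are few, so in bulk RNA the transcripts of most of these genes can come also from working muscle, vessels or stroma.

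Values are TPM, transcripts per 1000000 transcripts, which are corrected for transcript length and can be compared between genes. In the vehicle-treated hearts the order of the mean levels in TPM was Gja1 (204.9 ± 13.1, SD, n = 4), Tbx5 (15 ± 5.29), Hcn2 (9.64 ± 0.993), Tbx3 (7.49 ± 0.841), Gja5 (5.55 ± 2.06), Hcn4 (1.96 ± 0.379) and Shox2 (0.674 ± 0.145). Among the neighbours in this order, the ranges of Tbx5, Hcn2, Tbx3 and Gja5 over the mice each overlapped that of the next, while Gja1 was above Tbx5, Gja5 above Hcn4 and Hcn4 above Shox2 in every mouse. In the TA of vehicle-treated mice the order was Gja1 (23.3 ± 9.54 TPM, n = 4), Tbx3 (4.79 ± 1.41), Shox2 (3.18 ± 0.119), Gja5 (2.55 ± 0.541), Hcn4 (1.07 ± 0.442), Hcn2 (0.682 ± 0.252) and Tbx5 (0.0973 ± 0.0445). Here Tbx3, Shox2 and Gja5 overlapped in turn, as did Hcn4 and Hcn2, and the other neighbours did not.

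**Figure D1:**
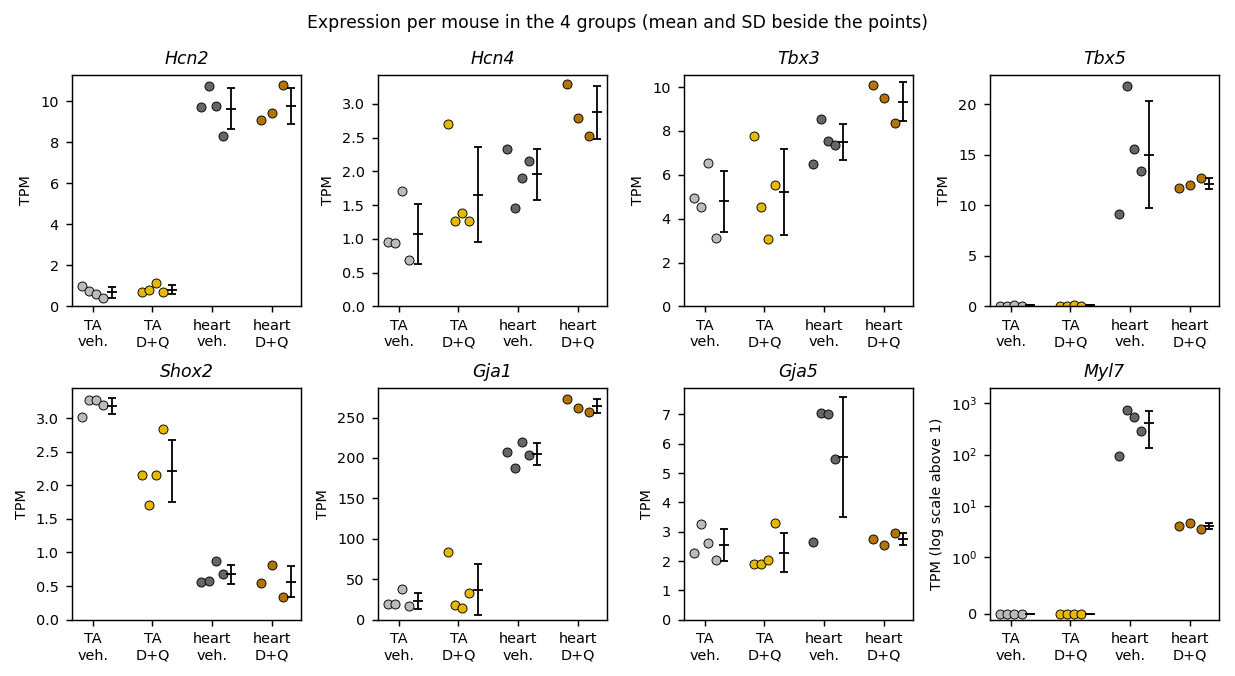
TPM of the 7 genes and of the atrial transcript Myl7 in each mouse (points), with the mean and SD of each group to the right, and replicates from left to right in numerical order. Axes start at 0, and the Myl7 axis is logarithmic above 1 TPM; Hcn2, Tbx5 and Gja1 are high in all hearts and low in all TA libraries, and Shox2 is the reverse.

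Each comparison was made with limma on log2(TPM + 0.5) across every gene that reached 0.5 TPM in 3 or more libraries. A gene was called if its log2 fold change was larger than 0.5 in either direction and its Benjamini-Hochberg adjusted p was under 0.05. Fold changes on this scale understate those of genes near 0.5 TPM. TPM keeps no record of sequencing depth, so all errors come from the spread between mice, and no limit for undetected transcripts can be given. In bulk tissue, fewer cells of a type and less RNA per cell cannot be told apart. The libraries carried their own defining transcripts: the 5 cardiomyocyte genes listed summed to between 13880 and 18230 TPM in hearts and to between 51.8 and 116 TPM in TA. The library of the D + Q-treated heart labelled male had 47.2 TPM of Xist, the only 1 of 15 libraries to go against its labelled sex. Labelled sex was the covariate of the heart model. The heart values are therefore given also with sex read from expression where that changed a direction. By expression, every D + Q-treated heart was female, as were 2 of the 4 vehicle-treated hearts. Sex and treatment then overlap in part.

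The same hearts also differed in atrial transcripts. Myl7, the atrial myosin light chain 2, was at 94.1, 730, 541 and 283 TPM in vehicle-treated hearts 1 to 4, and at 3.99, 4.54 and 3.46 TPM in D + Q-treated hearts 1 to 3. It was listed at 0 in all 8 TA libraries. Myl4, the atrial myosin light chain 1, was at 72.0, 515, 355 and 205 TPM in the vehicle-treated hearts and at 3.96, 4.62 and 2.05 TPM in the D + Q-treated hearts. All D + Q-treated hearts were below all vehicle-treated hearts for both genes, and the vehicle-treated hearts alone spanned a wide range in which both genes put the 4 mice in the same order, 1, 4, 3, 2 from low to high. Both fell with D + Q in the heart comparison, with log2 fold changes of -6.38 ± 0.46 (SE, limma adjusted p = 0.00904) for Myl7 and -6.12 ± 0.37 (adjusted p = 0.00668) for Myl4. The calls were lost without vehicle-treated heart 2, with limma adjusted p of 0.0619 for Myl7 and 0.0503 for Myl4, and that of Myl7 was lost without D + Q-treated heart 2 (adjusted p = 0.0556). Both were also lost with no filter on low values (limma adjusted p of 0.0693 for Myl7 and 0.0652 for Myl4), and that of Myl4 with the replicate number as a block (limma adjusted p = 0.058). The levels of Myl7 and Myl4 varied between hearts. Each gene below is therefore given with its order against Myl7 in the 4 vehicle-treated hearts and its level in the D + Q-treated hearts. Treatment and atrial transcripts separate the same mice, so their parts in a heart difference cannot be told apart. Vehicle-treated hearts 1 and 4 were labelled male and 2 and 3 female. The order of Myl7 therefore put the males below the females, and sex and atrial level cannot be told apart in it.

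In neither tissue was any of the 7 genes called between D + Q and vehicle in these fits. The paper, with a test on counts that was not run here, reports more changed genes in both tissues than were called here. It lists Hcn4 among those raised by D + Q in both. In TA, 0 of the 6 genes above the minimum level were called, as were 0 of all 16298 genes tested with limma (0%). At an unadjusted p under 0.05 with the same minimum change, 0 of the 6 and 360 genes (2.21%) passed. In heart, 0 of 7 were called, against 51 of 16132 genes (0.316%), and 1 of 7, Gja5, passed at the unadjusted p, against 5.1% of all genes. The median log2 fold change of the genes was -0.07 in TA (2 of 6 positive), against -0.07 over all genes tested, and 0.02 in heart (4 of 7 positive), against -0.0025 over all genes tested.

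**Figure D2:**
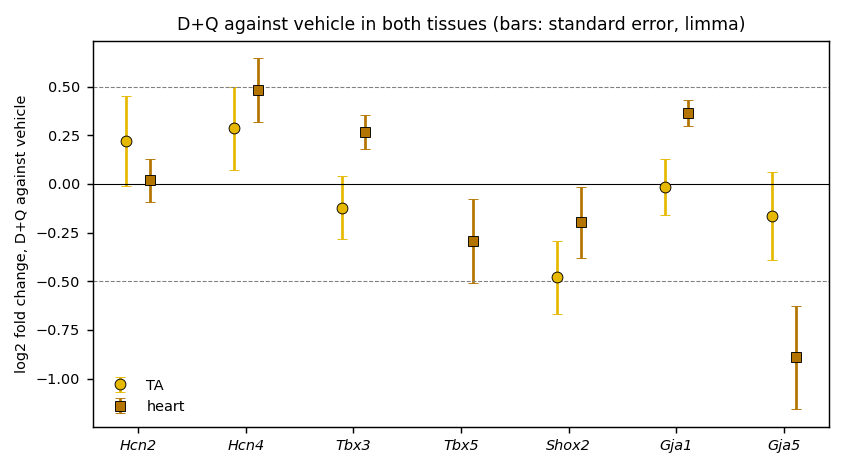
Log2 fold change of D + Q against vehicle in TA (circles) and heart (squares) with limma standard errors; dashed lines mark the minimum change of 0.5 in either direction, and Tbx5 in TA was below the minimum level and is not drawn. Gja5 in heart, at -0.89, is the only value past the dashed lines, and no gene drawn passed the adjusted p.

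Hcn2 and Hcn4 encode pore-forming subunits of the HCN channels. Hcn4 is the main isoform of the sinoatrial node, and Hcn2 is found in working muscle as well. Hcn2 lies on chromosome 10 (GRCm39, 79552120 to 79571948, plus strand) and Hcn4 on chromosome 9 (58730132 to 58770458, plus strand).

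Hcn2 was at 9.74, 10.7, 9.77 and 8.32 TPM in vehicle-treated hearts and at 9.11, 9.43 and 10.8 TPM in D + Q-treated hearts. The groups overlapped, and the log2 fold change was 0.02 ± 0.11 (SE, limma adjusted p = 0.954). Its order in the vehicle-treated hearts was neither that of Myl7 nor the reverse. In TA it was at 0.988, 0.762, 0.584 and 0.397 TPM with vehicle and at 0.686, 0.786, 1.13 and 0.684 TPM with D + Q, again overlapping, with a log2 fold change of 0.22 ± 0.23 (limma adjusted p = 0.999). The level in TA was close to the minimum in both groups.

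Hcn4 was at 2.33, 1.45, 1.91 and 2.15 TPM in vehicle-treated hearts and at 3.30, 2.79 and 2.52 TPM in D + Q-treated hearts. All 3 D + Q-treated hearts were above all 4 vehicle-treated hearts, as for 9.63% of all genes tested. The ratio of the means was 1.47, the log2 fold change was 0.48 ± 0.16 and the adjusted p from limma was 0.197, so the difference did not pass. In the vehicle-treated hearts Hcn4 ran in the reverse order of Myl7, as did 0.942% of all genes, and was lowest in the heart with the most Myl7. As a group, the D + Q-treated hearts, with the least Myl7, had the most Hcn4. Among them the reverse order was not kept, as heart 3 had the least of both (3.46 TPM of Myl7 and 2.52 TPM of Hcn4). In TA, D + Q replicate 1 stood apart at 2.70 TPM, the others being at 1.26, 1.38 and 1.27 TPM, and the vehicle-treated mice were at 0.947, 0.945, 1.71 and 0.690 TPM. The TA groups overlapped, with a log2 fold change of 0.29 ± 0.21 (limma adjusted p = 0.999).

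Of 7 other HCN channels and partners listed, 5 were tested in heart and none was called in either direction. Cav3, which encodes the caveolin of muscle membranes, had 25.4 ± 2.83 TPM (SD, n = 3) in D + Q-treated hearts and 18.6 ± 1.61 (n = 4) in vehicle-treated hearts, without overlap, and the limma adjusted p was 0.1. Popdc1, a membrane protein that binds cAMP and is needed for normal pacing under stress, was at 16.7 ± 0.449 and 12.6 ± 1.40 TPM, also without overlap (log2 fold change 0.39, limma adjusted p = 0.117). Pex5l, which encodes the HCN partner TRIP8b, was at 0.440 and 0.561 TPM with overlapping groups (adjusted p = 0.602 in limma).

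Tbx3, Tbx5 and Shox2 are transcription factors. Tbx3 represses genes of working muscle in the nodes, Tbx5 activates genes of the atria and the conduction system, and Shox2 is needed for the sinoatrial node in the embryo. Tbx3 (119806298 to 119822797) and Tbx5 (119970733 to 120023284) are neighbours on the plus strand of chromosome 5, and Shox2 lies on the minus strand of chromosome 3 (66879058 to 66889284).

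Tbx3 was at 6.51, 8.56, 7.53 and 7.38 TPM in vehicle-treated hearts and at 10.1, 9.52 and 8.37 TPM in D + Q-treated hearts. Only vehicle-treated heart 2 overlapped the D + Q group, and the log2 fold change of 0.27 ± 0.09 did not pass (limma adjusted p = 0.183). The vehicle-treated hearts kept the order of Myl7, as for 11.4% of all genes, although the D + Q-treated hearts, with the least Myl7, were at the upper end. In TA, Tbx3 was at 4.94, 4.52, 6.55 and 3.14 TPM with vehicle and at 7.75, 4.53, 3.05 and 5.53 TPM with D + Q. These overlapped, with a log2 fold change of -0.12 ± 0.16 (limma adjusted p = 0.999). An antisense transcript, Tbx3os1, shares 3925 bases of annotation with Tbx3 and reached 5.51 TPM in a D + Q-treated heart. Whether the authors' quantification used strand is not given in the sources used here.

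Tbx5 was at 9.14, 21.9, 15.6 and 13.4 TPM in vehicle-treated hearts and at 11.7, 12.0 and 12.7 TPM in D + Q-treated hearts. The 3 D + Q-treated hearts lay close together and inside the vehicle range, and the log2 fold change was -0.29 ± 0.22 (limma adjusted p = 0.523). In the vehicle-treated hearts the level followed the order of Myl7, with a ratio of 2.39 between the hearts with the most and the least Myl7. In TA, Tbx5 was between 0.0471 and 0.177 TPM in the 8 mice and was not in the fit. An exact two-sided permutation test over the mice gave p = 0.943 for the TA groups.

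Shox2 was at 0.560, 0.580, 0.877 and 0.677 TPM in vehicle-treated hearts and at 0.548, 0.807 and 0.344 TPM in D + Q-treated hearts. All were near the minimum level, the groups overlapped and the order did not follow Myl7 in either direction. The log2 fold change in heart was -0.20 ± 0.18 (limma adjusted p = 0.622). In TA, Shox2 was higher and its vehicle-treated mice were close together, at 3.01, 3.26, 3.26 and 3.19 TPM, while the D + Q-treated mice were at 2.15, 1.71, 2.15 and 2.84 TPM. Every D + Q-treated TA was below every vehicle-treated TA, which held for 1.25% of all genes in that direction and for 0.264% in the other. The log2 fold change was -0.48 ± 0.19, with an unadjusted p of 0.0269 and an adjusted p of 0.999 in limma. The exact two-sided permutation test over the 8 mice gave p = 0.0286, the smallest that 4 mice against 4 allow, before any adjustment. This value restates the lack of overlap. The same test in TA gave p between 0.171 and 0.943 for the other genes described. All 4 D + Q-treated TA mice were male, while the vehicle group held 2 females (replicates 2 and 4), at 3.26 and 3.19 TPM. The vehicle-treated males (replicates 1 and 3), at 3.01 and 3.26 TPM, were also above every D + Q-treated mouse. With labelled sex as the covariate, the log2 fold change of Shox2 in TA was -0.44. Rsrc1, on the opposite strand, shares 658 bases with Shox2 and was between 8.84 and 12.2 TPM in TA.

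Of 13 other conduction transcription factors listed, 11 were tested in heart, and 0 were called. Their median log2 fold change was 0.0037, with 7 of 11 positive. Etv1, a factor of fast-conducting atrial and Purkinje cells, had 6.495 ± 1.01 TPM (SD, n = 3) in D + Q-treated hearts and 10.04 ± 3.07 (n = 4) in vehicle-treated hearts. No mouse overlapped, but the log2 fold change of -0.61 ± 0.20 had a limma adjusted p of 0.182. In TA, Etv1 was at 3.57 ± 0.755 and 5.31 ± 1.34 TPM (log2 fold change -0.49, limma adjusted p = 0.999). Gata6 and Hopx, factors of cardiac muscle, were at 33.1 against 26.6 TPM and at 153 against 122 TPM in D + Q and vehicle hearts, with overlapping mice and limma adjusted p of 0.155 and 0.230.

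Gja1 and Gja5 encode connexin 43 and connexin 40. Connexin 43 joins working muscle cells of the atria and ventricles, and connexin 40 joins atrial muscle, the His bundle and Purkinje fibres and is also made by arterial endothelium. Gja1 lies on chromosome 10 (56253241 to 56278609, plus strand) and Gja5 on chromosome 3 (96812009 to 96984732, plus strand).

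Gja1 was at 208, 188, 220 and 204 TPM in vehicle-treated hearts and at 273, 262 and 257 TPM in D + Q-treated hearts. As with Hcn4, and so for 2 of the 7 genes, every D + Q-treated heart was above every vehicle-treated heart (9.63% of all genes tested), with a ratio of the means of 1.29. The log2 fold change was 0.36 ± 0.07, with the smallest unadjusted p of the 7 genes (0.000808 in limma), an adjusted p of 0.0912 and a size under the minimum of 0.5. The exact two-sided permutation test gave p = 0.0286, the smallest that 3 hearts against 4 allow, before any adjustment. This value too restates the lack of overlap. For the other genes described, the same test in hearts gave p between 0.0571 (Hcn4) and 0.943 (Hcn2). Over 17 alternative fits the log2 fold change lay between 0.26 and 0.41, and limma's adjusted p between 0.0537 and 0.708. Gja1 did not follow Myl7 in the vehicle-treated hearts, and its ratio between the hearts with the most and the least Myl7 was 0.907.

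Transcripts of heart muscle were also at higher levels in the D + Q-treated hearts, without a call. The 5 cardiomyocyte genes, among them Actc1, Tnni3 and Tnnt2 of the sarcomere, all had positive log2 fold changes in heart (median 0.26, 0 called), and their summed level was between 17100 and 18230 TPM with D + Q and between 13880 and 15250 TPM with vehicle. Of the 5 ventricular genes 4 were positive (median 0.27, 0 called), with sums between 13370 and 14350 TPM against between 9632 and 11790 TPM. The part of this shift in the Gja1 values was not tested.

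In TA, Gja1 varied widely within both groups, at 19.4, 19.3, 37.5 and 16.9 TPM with vehicle and at 83.2, 17.6, 14.7 and 32.6 TPM with D + Q. D + Q replicate 1, vehicle replicate 3 and D + Q replicate 4 were the highest, in that order, as they were for Tbx3. They also had the highest values of the surrogate variable in the TA model, at 0.703, 0.295 and 0.228, the other 5 mice being below 0. The log2 fold change of Gja1 was -0.02 ± 0.14 with this variable (limma adjusted p = 0.999) and 0.39 ± 0.48 without it.

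Gja5 was at 2.66, 7.03, 7.02 and 5.47 TPM in vehicle-treated hearts and at 2.74, 2.54 and 2.94 TPM in D + Q-treated hearts. Vehicle-treated heart 1 lay among the D + Q-treated hearts and the other 3 were above all of them. The ratio of the means was 0.494 and the log2 fold change -0.89 ± 0.27, the widest of the 7 genes, with an unadjusted p of 0.0118 and an adjusted p of 0.159 in limma. Vehicle-treated heart 1 was also the vehicle heart with the least Myl7 and Myl4. From that heart to the one with the most Myl7, Gja5 differed by a ratio of 2.64. All 4 were in the order of Myl7, as for 11.4% of all genes. The mean of the D + Q-treated hearts was 1.03 times the value of vehicle-treated heart 1, although their Myl7 was far below it. Over 17 alternative fits the log2 fold change of Gja5 lay between -1.26 and 1.72, the only positive value with the Myl7 and Myl4 level in place of sex. In TA, Gja5 was at 2.27, 3.28, 2.62 and 2.03 TPM with vehicle and at 1.90, 1.90, 2.04 and 3.30 TPM with D + Q, overlapping, with a log2 fold change of -0.16 ± 0.23 (limma adjusted p = 0.999).

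The 5 arterial endothelial genes listed had a median log2 fold change of -0.12 in heart (1 of 5 positive, 0 called), and their sum was between 29.3 and 31.4 TPM with D + Q and between 28.1 and 40.0 TPM with vehicle. Gpr89, on the opposite strand to Gja5 and sharing 654 bases of annotation, was between 4.68 and 10.5 TPM in the 15 libraries. Because Gja5 and Myl7 kept the same order in the vehicle-treated hearts, the 250 bases upstream of the start of the canonical transcript of each are shown, from GRCm39 at chr3:96939461-96939710 (plus strand) and chr11:5848793-5849042 (minus strand), 5′ to 3′.
Gja5: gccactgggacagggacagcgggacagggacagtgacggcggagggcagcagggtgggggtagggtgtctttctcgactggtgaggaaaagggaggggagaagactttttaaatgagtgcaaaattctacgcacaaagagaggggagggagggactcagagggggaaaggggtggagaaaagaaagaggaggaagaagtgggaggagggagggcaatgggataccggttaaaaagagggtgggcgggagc
Myl7: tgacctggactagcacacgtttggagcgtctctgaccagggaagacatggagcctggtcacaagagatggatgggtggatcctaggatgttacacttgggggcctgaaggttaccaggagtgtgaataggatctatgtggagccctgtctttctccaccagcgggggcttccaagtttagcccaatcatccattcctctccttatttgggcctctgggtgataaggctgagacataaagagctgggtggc
Neither held the T-box half-site GGTGTGA or the NK2 element TNAAGTG on either strand, so no base is in capitals. Neither did those of the other members or of Myl4. Among 21757 promoters of the same length, 3.23% held the first and 10.1% the second motif. A promoter without them is thus the common case, and control by such factors was not tested.

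Of 9 other connexins listed, 3 were tested in heart, and none was called there or in TA. Gja4, which encodes an endothelial connexin, had 4.01 ± 0.186 TPM (SD, n = 3) in D + Q-treated hearts and 4.37 ± 1.23 (n = 4) in vehicle-treated hearts (limma adjusted p = 0.763). Gjc1, the connexin 45 of the nodes, was at 11.0 and 11.3 TPM, above Gja5 in both groups. Of the 8 intercalated disc genes listed, 7 had positive log2 fold changes in heart (median 0.12) and 0 were called. Cdh2, the cadherin that joins heart muscle cells, was at 150 ± 11.5 TPM with D + Q and 118 ± 5.35 with vehicle, without overlap (log2 fold change 0.33, limma adjusted p = 0.098), and Pkp2, a desmosomal protein, was at 64.0 ± 2.80 and 55.3 ± 2.78 (adjusted p = 0.166 in limma).

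**Figure D3:**
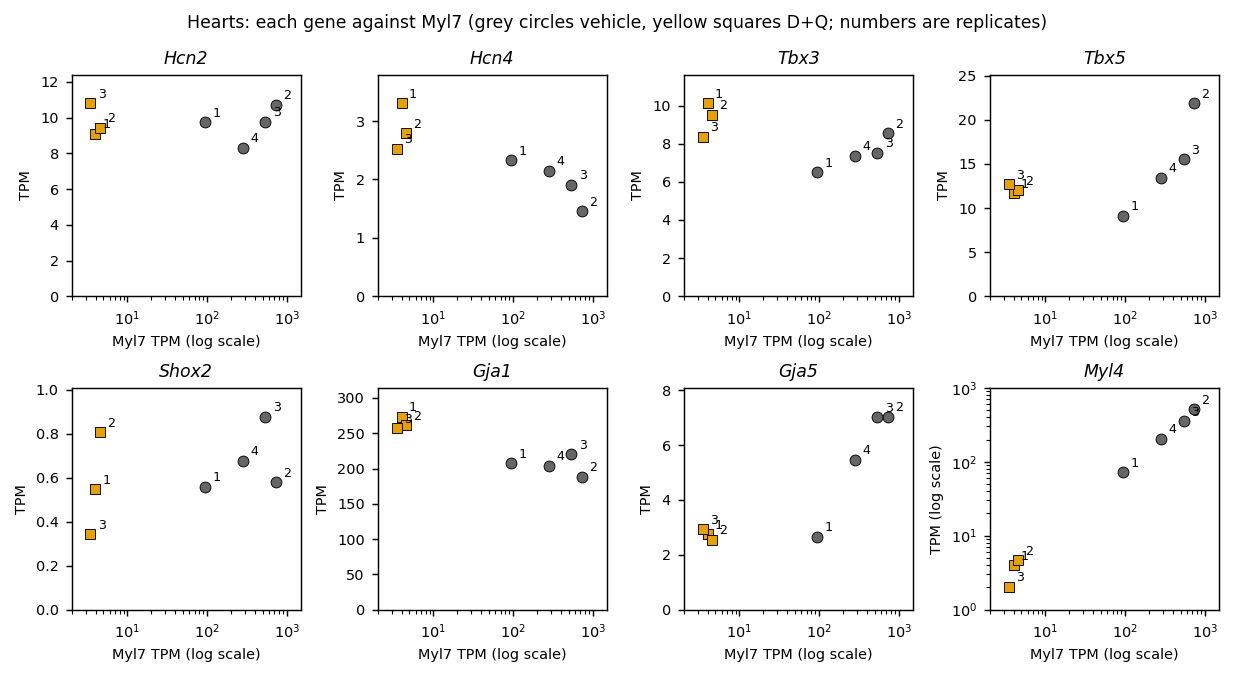
TPM of each gene, and of Myl4, against Myl7 TPM (log axis) in the 4 vehicle-treated hearts (grey circles) and 3 D + Q-treated hearts (yellow squares), numbered by replicate. Tbx3, Tbx5 and Gja5 climb with Myl7 among the circles and Hcn4 descends; the squares sit at 3.46 to 4.54 TPM of Myl7, where Gja5 is near circle 1 and Gja1, Hcn4 and most Tbx3 values are above the circles.

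Across the 7 genes, 3 (Tbx3, Tbx5 and Gja5) kept the order of Myl7 in the vehicle-treated hearts, against 11.4% of all genes. Its reverse was kept by 1 (Hcn4), against 0.942%. With 4 mice these orders are a description, and they also part the labelled sexes. Per unit of log2 atrial level, taken as the mean log2(TPM + 0.5) of Myl7 and Myl4, the slope among the vehicle-treated hearts was 0.455 for Gja5, 0.384 for Tbx5, 0.113 for Tbx3, 0.056 for Shox2, 0.041 for Hcn2, -0.022 for Gja1 and -0.161 for Hcn4. A gene in proportion to the atrial transcripts would have a slope of 1. With this atrial level as the covariate in place of sex, the log2 fold change of D + Q against vehicle became 1.93 ± 0.42 for Tbx5, 1.72 ± 0.54 for Gja5, 1.04 ± 0.33 for Tbx3, 0.42 ± 0.75 for Shox2, 0.26 ± 0.24 for Gja1, 0.16 ± 0.41 for Hcn2 and -0.38 ± 0.54 for Hcn4. The covariate had a correlation of -0.962 with treatment over the 7 hearts, no gene of the whole table was called in that fit, and 4 of these 7 directions (Tbx5, Gja5, Shox2 and Hcn4) were opposite to those with sex.

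Of 13 other pacemaker and conduction channels listed, 5, among them Cacna1g, Cacna1d and Kcnj3, kept the order of Myl7 in the vehicle-treated hearts. Over all genes the share was 11.4%. Kcnj3, a subunit of the acetylcholine-gated potassium channel of atria and nodes, was at 12.7, 26.3, 21.9 and 18.3 TPM in vehicle-treated hearts 1 to 4, and its mean was 13.7 ± 1.39 TPM (SD, n = 3) with D + Q. Of the 12 channels tested in heart, 10 had positive log2 fold changes (median 0.24) and 0 were called. Slc8a1, the sodium-calcium exchanger, was at 260 ± 6.40 TPM with D + Q and 207 ± 11.5 with vehicle (log2 fold change 0.32 ± 0.06, limma adjusted p = 0.0934). The calcium channel genes Cacna1g and Cacna1d lay apart in opposite directions, Cacna1g at 7.47 ± 0.986 against 4.46 ± 0.514 TPM (log2 fold change 0.67, limma adjusted p = 0.0942) and Cacna1d at 0.986 ± 0.288 against 1.93 ± 0.582 TPM (log2 fold change -0.78, adjusted p = 0.098 in limma). In none of these 3 did the heart groups overlap. Of the 12 channels tested, every D + Q-treated heart was above every vehicle-treated heart for 6, against 9.63% of all genes tested. Every D + Q-treated heart was below for 1, against 5.57%.

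Of 7 nodal and Purkinje marker genes, 6 were tested in heart, 5 had negative log2 fold changes (median -0.17) and 0 were called. Cntn2, a cell adhesion protein of Purkinje cells, had 1.00 ± 0.118 TPM (SD, n = 3) in D + Q-treated hearts and 1.82 ± 0.372 (n = 4) in vehicle-treated hearts, without overlap (log2 fold change -0.62, limma adjusted p = 0.143). Cpne5 was at 0.181 ± 0.0581 against 1.09 ± 0.836 TPM (log2 fold change -1.07, limma adjusted p = 0.229), with vehicle-treated heart 4 at 2.22 TPM and heart 1 at 0.391 TPM. Rgs6, a regulator of the muscarinic response of the heart, kept the order of Myl7 among the vehicle-treated hearts, and its groups overlapped (adjusted p = 0.368 in limma).

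The atrial genes listed were the exception. Of 6, 3 were called lower in D + Q-treated hearts, Myl7, Myl4 and Sln, the last encoding sarcolipin, a regulator of the calcium pump, at 0.211 ± 0.190 TPM against 32.6 ± 22.6 TPM (log2 fold change -5.46, limma adjusted p = 0.00997). The median log2 fold change of the 6 was -4.11. Besides Myl7, which sets the order, Myl4, Sln and Nr2f2 kept the order of Myl7 in the vehicle-treated hearts, as for 11.4% of all genes. Mesothelial genes, of the outer lining of the heart, were also lower on the whole without a call (4 of 4 negative, median -0.79, summed level 11.1 to 14.3 TPM with D + Q and 15.8 to 22.4 TPM with vehicle), with log2 fold changes of -0.99 for Upk3b, -0.77 for Krt19 and -0.81 for Msln. The 4 smooth muscle genes were all negative too (median -0.57, 0 called), with Myh11 at -0.53, Cnn1 at -0.94 and Tagln at -0.62, as were the 5 fibroblast genes (median -0.41, 0 called), with Col1a1 and Dcn both at -0.41. D + Q-treated heart 2 stood apart in some transcripts of skeletal fibres. Tnnt3 was at 21.5, Myh4 at 10.2 and Myh1 at 7.03 TPM, against at most 1.77, 0.330 and 0.159 TPM in the other 6 hearts. Acta1 and Ckm, also listed for skeletal fibres, did not set that heart apart. They were at 304 and 1207 TPM, against 286 to 644 and 1042 to 1276 TPM in the other hearts. With or without that heart, 0 of the 7 genes were called in the heart comparison, so this does not test its part in their values.

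**Figure D4:**
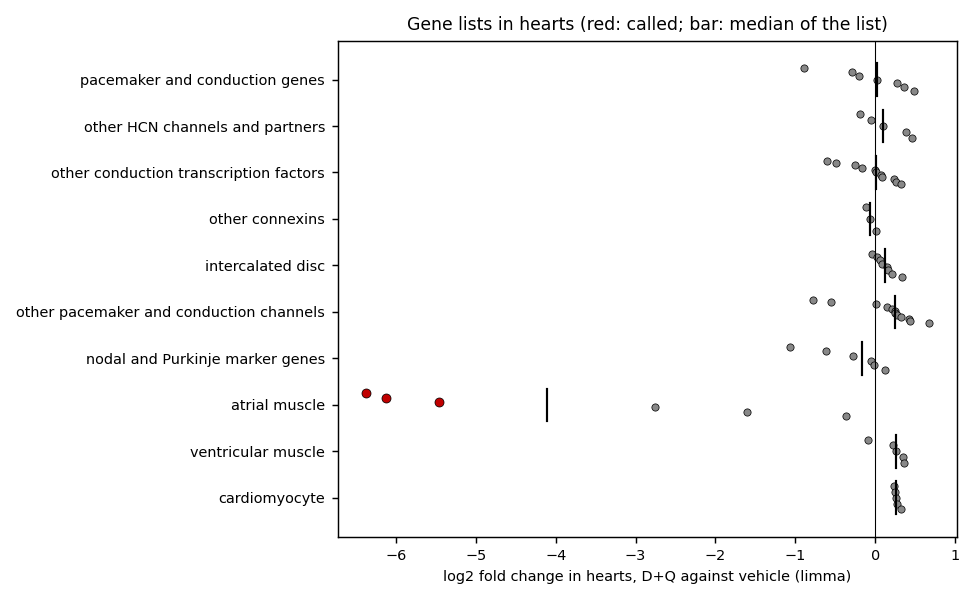
Log2 fold change in heart, D + Q against vehicle, of each tested gene (points) in the 7 genes described, the related lists and the atrial, ventricular and cardiomyocyte lists, with the median of each list as a bar and called genes in red. The red points are Myl7, Myl4 and Sln, and genes of the lists other than atrial muscle lie between -1.07 and 0.67.

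The difference between tissues was wide for most of the genes. Tissue, age and length of treatment differ together between TA and heart, so their parts cannot be told apart. Tbx5 reached the minimum level only in heart, so a difference was bound to appear and its values are a description. The ratio of its means in vehicle-treated mice was 154, over a level near 0 in TA, and its log2 fold change was 4.64. Of the other 6 genes, 5 were called higher in heart among vehicle-treated mice, against 14.1% of all 17868 genes tested, and 1, Shox2, was called lower, against 22.6%. Hcn2 had a ratio of 14.1 (log2 fold change 3.12 ± 0.16) and Gja1 one of 8.81 (3.18 ± 0.39). For Tbx5, Hcn2 and Gja1 every heart was above every TA, and for Shox2, with a ratio of 0.212 (log2 fold change -1.66 ± 0.16, limma adjusted p = 7.69e-07), every heart was below every TA.

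Gja5, Hcn4 and Tbx3 had smaller differences between tissues and the mice overlapped. For Gja5 the log2 fold change was 0.92 ± 0.25 (limma adjusted p = 0.00683). Hcn4 had 0.67 ± 0.22 (limma adjusted p = 0.0241), a call lost when vehicle-treated TA 1, 2 or 4 or heart 1 or 4 was left out, with limma adjusted p between 0.0525 and 0.0708 in those fits. Tbx3 had 0.63 ± 0.23 (limma adjusted p = 0.0357), and its call was lost in 6 of the fits that left out a mouse (TA 1, 2 or 4 or heart 2, 3 or 4), with no filter on low values and with the replicate number as a block, the adjusted p reaching 0.108 in limma without TA 4.

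Among D + Q-treated mice, 4 of the same 6 genes were called higher in heart (15.9% of all genes) and Shox2 was again called lower (21.4%). The log2 fold changes were 4.41 for Tbx5, 3.16 for Gja1, 2.97 for Hcn2, 0.84 for Tbx3, 0.69 for Hcn4 and -1.35 for Shox2. That of Hcn4 (limma adjusted p = 0.0316) lost its call with no filter and without TA 2, 3 or 4 or heart 1 or 2, where it reached a limma adjusted p of 0.112. Gja5 was not called, at 0.25 ± 0.27 (limma adjusted p = 0.493), with 2.74 ± 0.1996 TPM in heart (SD, n = 3) and 2.29 ± 0.677 TPM in TA (n = 4). The difference of the D + Q effect between tissues was not called for any of the 6 genes, or for Tbx5, against 11 of 17868 genes (0.0616%) in the whole table, and was -0.68 ± 0.37 for Gja5 (limma adjusted p = 0.908). The tissue contrasts and the treatment contrasts share their mice, so they are not independent of each other.

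The genes whose log2(TPM + 0.5) ran most like each of the 7 over the 15 libraries were found by Pearson's r, which here mostly measures the difference between heart and TA. For Tbx5 they were Kcnj3 (r = 0.998), Dsc2 (0.996) and Dsg2 (0.996), the last 2 encoding desmosomal cadherins. For Hcn2 they were Myocd (0.995), which encodes the muscle transcription coactivator myocardin, Gm14267 (0.995) and Colec11 (0.994). For Gja1 they were Wt1 (0.989), a factor of the mesothelium, Shroom3 (0.987) and Inafm2 (0.987), and for Shox2 Creb3l1 (0.975), Serpinb1a (0.971) and Cgrrf1 (0.971). Tbx3 was most like Tmem51 (0.966), Clic4 (0.958) and Shb (0.952). The values were lower for Hcn4, led by the predicted genes Gm20686 (0.912), Gm20186 (0.903) and Gm56555 (0.899), and for Gja5, led by Igkv1-88 (0.897), Mybphl (0.894) and Tmem163 (0.889). Dsc2 and Dsg2, like Tbx5, also kept the order of Myl7 in the vehicle-treated hearts.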

How the data were processed

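RNA of 15 mice was sequenced after mRNA library preparation. Per the labels, the authors used Trim Galore 0.6.10 and Salmon 1.10.3 with GRCm39, and deposited TPM for 56980 genes, of which 56236 identifiers were found in GENCODE M39. The annotation release used by the authors is not given in the sources used here. TPM sums to 1000000 in each library, so depth is unknown, and the authors' count test was not run. Groups came from the sample labels.

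log2(TPM + 0.5) was fitted in R 4.3.3 with limma 3.58.1 (lmFit and eBayes, whose prior variance followed a trend with level). A gene was kept if 3 or more libraries reached 0.5 TPM. The TA model held treatment and 1 surrogate variable, estimated in 5 rounds, the heart model treatment and labelled sex, and the 15-library model the 4 groups, giving the tissue contrasts and the difference between tissues of the D + Q effect. Adjustment of p followed Benjamini and Hochberg, over all genes tested. Single genes were also compared with exact permutation tests over mice, planned only for genes that the filter left out of a fit. The code was tested on simulated data, in which 200 genes were changed by 1 on the log2 scale. The TA fit called 96 of them and the heart fit 123, so changes of that size can be missed.

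The genes described, the related lists and the tests were chosen with earlier results of these data known. The genes named were the 7 genes, Myl7 and Myl4, the called genes of each list (or the 3 with the smallest p in heart where fewer than 2 or more than 3 were called, of which not all are named) and, for each of the 7 genes the 3 with the highest correlation. Kcnj3, Bmp10, Nppa, Nr2f2, Myh4, Myh1 and the genes that overlap a member were named beyond this after their values were seen. All 117 listed genes were matched, and some are not reported here. Libraries of a group correlated at 0.949 to 0.982 and none was a copy. Each library is labelled as a separate sample, and p-values measure the spread between these samples. Alternatives were other pseudocounts (0.1 and 1), filters, scaling, covariates, a replicate block and leaving out each mouse. The authors' own counts, functional and histological data were not analysed here.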

Additional observations from a re-analysis of the deposited data

Results flagged for a closer look

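In groups of 4 mice, 4 values of the genes described stood far from the other 3 relative to the whole range of the group, all in TA. They were Hcn4 in D + Q replicate 1 at 2.70 TPM, Tbx5 in vehicle replicate 3 at 0.164 TPM, Gja1 in vehicle replicate 3 at 37.5 TPM and Gja5 in D + Q replicate 4 at 3.30 TPM. In all 4 cases the value was the highest of its group. For normally distributed values, chance alone gives such a gap in about 1 of 20 groups. The 25 groups examined held TPM, shared their mice and included those of Myl7 and Myl4, so that rate is only a guide.

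The test of the difference itself called the effect of D + Q different between heart and TA for Myl7 and Myl4. TA is not atrial tissue, so Myl4 is not an atrial transcript there, and its source in TA was not tested. The heart effect minus the TA effect was -6.16 on the log2 scale for Myl7 (limma adjusted p = 0.00067), which was listed at 0 in all TA libraries, so that this value only restates the heart effect and tests no difference, and -6.14 for Myl4 (limma adjusted p = 0.00197), which was between 34.4 and 79.6 TPM in TA.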

How the results depend on the processing

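None of the 7 genes was called between D + Q and vehicle, or in the difference between tissues, under any alternative run. The number of genes called over the whole table was less stable. In TA it was 0, and 0 to 2 when a mouse was left out. In heart it was 51, against 0 with no filter, 13 with no trend, 25 with sex read from Xist and Y-linked genes, 0 with the Myl7 and Myl4 level as the covariate, and 0 (without vehicle replicate 2) to 136 (without vehicle replicate 3) when a mouse was left out, each of the 7 omissions changing it. For the difference between tissues it was 11, against 7 at a pseudocount of 1, 5 with no filter and 5 to 14 when a mouse was left out.

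Several directions of uncalled values turned. In TA, the log2 fold change of Tbx3 was 0.086 with no covariate. That of Gja1 in TA was 0.013 at a pseudocount of 0.1, 0.11 with labelled sex, 0.39 with no covariate and -0.15 to 0.082 when a mouse was left out, and that of Myl4 in TA was -0.006 to 0.55 when a mouse was left out. In heart, Hcn2 was at -0.067 with sex read from expression and between -0.14 and 0.088 when a mouse was left out. With the Myl7 and Myl4 level as covariate, the heart values were -0.38 for Hcn4, 1.93 for Tbx5, 0.42 for Shox2 and 1.72 for Gja5. The difference between tissues for Hcn4 was -0.036 at a pseudocount of 0.1, -0.03 after median-of-ratios scaling and -0.16 to 0.23 when a mouse was left out, and for Gja1 it was 0.11 with labelled sex and -0.34 to 0.48 when a mouse was left out. The causes were not tested.

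Replicate numbers are shared between groups but the mice are different animals, and correlations of same-numbered mice lay between -0.279 and 0.032, so the numbers do not pair them. With a replicate block the number of genes called was 4 in heart and 5 for the difference between tissues, Tbx3 and Gja1 in TA were at 0.086 and 0.39, Hcn2 in heart at -0.044 and the difference between tissues for Hcn4 at -0.034.

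Depth is unknown, so levels near 0.5 TPM, such as Shox2 in heart and Hcn2 in TA, carry an unknown counting error. Groups held 3 or 4 mice, with 1 library against its labelled sex.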

Other observations

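Of the 6 atrial genes listed, Myl7 sets the order of the vehicle-treated hearts, and Myl4, Sln and Nr2f2 kept it, as did 11.4% of all genes. Sln was at 7.86, 60.03, 40.5 and 22.01 TPM in hearts 1 to 4. The other 2 genes did not keep the order. Bmp10, a growth factor of the right atrium, was at 1.64, 0.106, 16.3 and 20.4 TPM in vehicle-treated hearts 1 to 4, and was lowest in heart 2, the heart with the most Myl7. Nppa, which encodes atrial natriuretic peptide, was at 688, 2956, 1268 and 574 TPM in the same hearts.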
